A study of Mus musculus with 12 samples.

Results

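The mitosis genes described here are 37 mouse genes whose products act in cell division, taken from a list of gene symbols and mapped to Ensembl gene identifiers. They are 37 of the 54232 genes in the deposited count tables. All 37 passed the filter on low counts, which left 16767 genes in the tests. RNA was sequenced from MMTV-NIC mouse breast cancer cells, a line from tumours in which the mammary MMTV promoter drives an activated Erbb2 oncogene together with Cre recombinase. The 12 libraries form 4 groups of 3: AXL KO cells in hypoxia (1% O2), AXL WT cells in hypoxia (1% O2), AXL KO cells in normoxia (21% O2) and AXL WT cells in normoxia (21% O2). KO denotes a knockout of the receptor tyrosine kinase gene Axl, and WT cells keep the gene. How long hypoxia lasted, how many clones the knockout cells came from and whether replicates were separate cultures is not given in the labels. The p-values therefore rest on the spread between these libraries, pooled over the 4 groups, and that spread may be technical.

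Mitosis is driven by CDK1 bound to cyclins A and B. Rising cyclin levels and the phosphatase CDC25C switch the kinase on, and Aurora and Polo-like kinases then build the spindle and align the chromosomes. The checkpoint kinases BUB1, BUBR1 (Bub1b) and TTK hold the cell before anaphase until every kinetochore is attached. The anaphase-promoting complex, through CDC20 and the ubiquitin-conjugating enzyme UBE2C, then destroys cyclin B and securin, separase (Espl1) cuts cohesin, and the midzone proteins complete cytokinesis. Many of these genes are transcribed late in the cell cycle, through promoters that carry a CHR element (cell cycle genes homology region) and CCAAT boxes bound by NF-Y, under the control of the DREAM and B-MYB/FOXM1 complexes. Their RNA is therefore widely used as a measure of proliferation. In RNA from a whole culture, fewer dividing cells and less RNA of a gene per dividing cell cannot be told apart.

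The promoter sequences show what the genes share outside their RNA levels. RefSeq promoter windows (build GRCm38.p6, 250 bases before to 50 after the annotated start) were matched for 31 of the 37 genes, giving 33 windows. Foxm1, Ccna2, Cdc25c, Tpx2, Kif20a and Aurkb are named only. The CHR letters TTTGAA were searched on both strands, and 25 of the 33 windows (75.8%) held a match, against 17.9% of all 32851 promoter windows. The box CCAAT, also searched on both strands, was in 25 windows (75.8%), against 37.4% of all windows. Both were found in 21 windows (63.6%), against 6.95% of all windows. At least 2 CCAAT boxes lay in 16 windows (48.5%), against 11.7% of all windows. The 2 motifs overlapped in 0 of the 33 windows, and a match is a description of the sequence, not a site. Of the 4 windows printed here, Ccnb2 is shown for its 3 CCAAT boxes, Prc1 for the gene nearest to its WT normoxia level in hypoxic KO cells, Espl1 for the gene with the lowest KO hypoxia level relative to WT normoxia, and Kif11 for matches on the opposite strand. They are Ccnb2 (chr9:70421505-70421804, minus strand), Prc1 (chr7:80294201-80294500, plus strand), Espl1 (chr15:102296043-102296342, plus strand) and Kif11 (chr19:37376132-37376431, plus strand), each written 5′ to 3′ along the gene's strand, with the matches in capitals (TTCAAA and ATTGG are matches read on the other strand).
Ccnb2: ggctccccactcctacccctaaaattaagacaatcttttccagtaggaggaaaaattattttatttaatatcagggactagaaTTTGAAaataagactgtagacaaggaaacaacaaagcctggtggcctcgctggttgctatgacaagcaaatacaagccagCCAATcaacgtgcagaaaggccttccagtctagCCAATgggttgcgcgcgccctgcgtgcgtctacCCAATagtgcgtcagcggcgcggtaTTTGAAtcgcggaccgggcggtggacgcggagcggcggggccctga
Prc1: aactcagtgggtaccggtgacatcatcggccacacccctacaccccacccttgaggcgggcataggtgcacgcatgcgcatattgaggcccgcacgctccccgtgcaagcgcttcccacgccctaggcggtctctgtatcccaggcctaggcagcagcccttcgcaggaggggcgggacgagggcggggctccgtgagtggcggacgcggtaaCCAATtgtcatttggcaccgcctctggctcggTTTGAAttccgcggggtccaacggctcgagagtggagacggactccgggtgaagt
Espl1: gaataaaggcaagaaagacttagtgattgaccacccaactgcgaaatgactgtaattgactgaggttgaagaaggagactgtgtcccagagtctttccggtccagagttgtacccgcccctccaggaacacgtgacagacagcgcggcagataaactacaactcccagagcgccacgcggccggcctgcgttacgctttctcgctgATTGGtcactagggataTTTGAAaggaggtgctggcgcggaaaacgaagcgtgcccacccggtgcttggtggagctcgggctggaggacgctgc
Kif11: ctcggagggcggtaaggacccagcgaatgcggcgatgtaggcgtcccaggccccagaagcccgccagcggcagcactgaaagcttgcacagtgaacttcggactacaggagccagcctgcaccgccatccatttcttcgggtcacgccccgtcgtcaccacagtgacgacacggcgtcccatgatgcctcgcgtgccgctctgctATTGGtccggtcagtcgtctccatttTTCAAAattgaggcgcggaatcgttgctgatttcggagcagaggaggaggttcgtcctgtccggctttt
In Ccnb2, which encodes cyclin B2, the CCAAT boxes begin at positions -87, -54 and -21 from the annotated start and are followed by a CHR match at position 5. In Prc1, a cross-linker of midzone microtubules, the CCAAT box begins at position -37 and the CHR match at -5. In Espl1 (separase) and Kif11 (the kinesin that pushes spindle poles apart) the same pair begins at -44 and -27 in Espl1 and at -45 and -19 in Kif11. No match to either motif was found in the windows of Birc5, Nuf2, Kif18a and Nusap1, which says only that these letters are not in those windows.

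**Figure D1:**
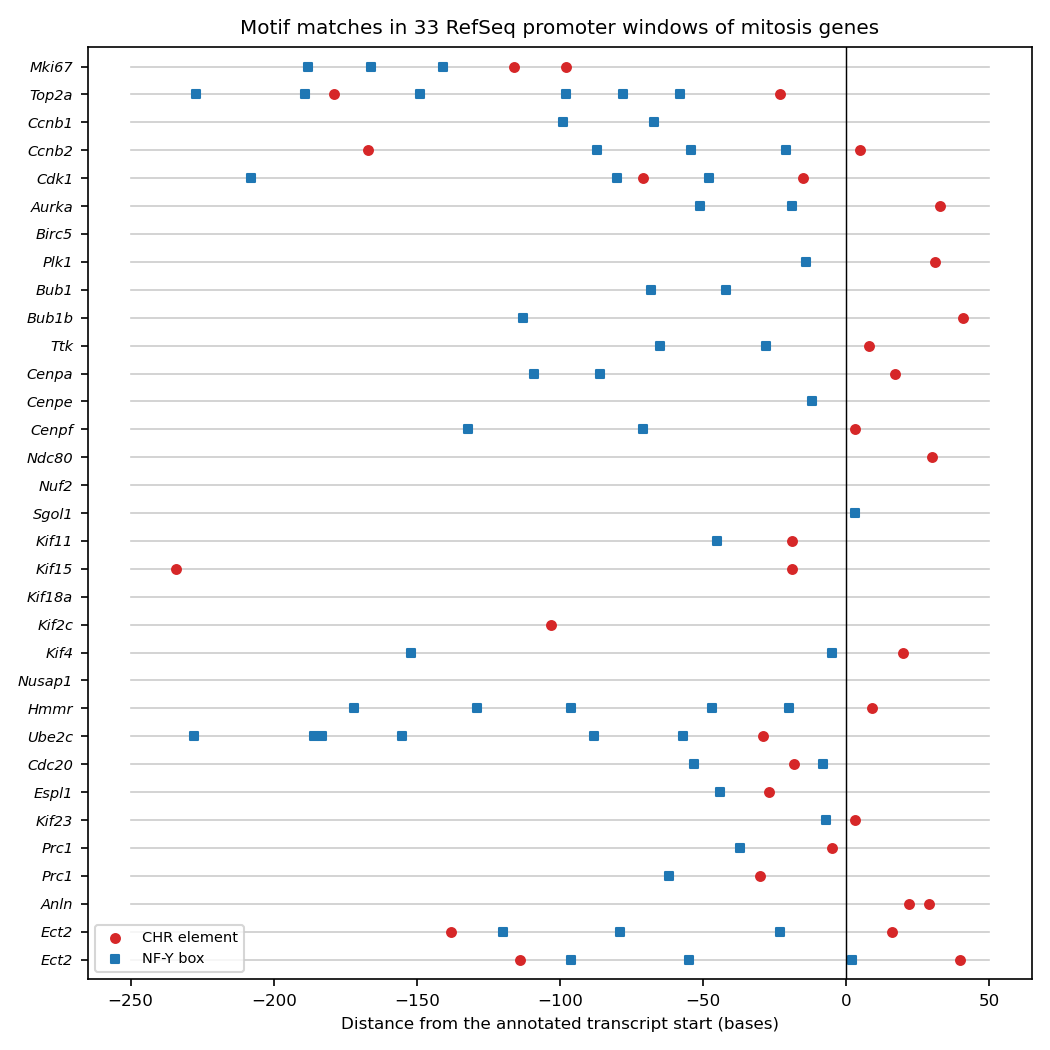
Positions of CHR (TTTGAA, red circles) and NF-Y (CCAAT, blue squares) matches on either strand in the 33 RefSeq promoter windows, with the distance from the annotated transcript start in bases on the x axis and 1 line per window (Prc1 and Ect2 have 2 windows each). In 21 windows both motifs are present, and most matches lie close to the start.

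The libraries held between 45297267 and 58775422 counts assigned to genes. Axl had 78 to 105 counts in KO hypoxia libraries against 19395 to 28495 in WT hypoxia libraries, and 164 to 200 in KO normoxia libraries against 47960 to 57291 in WT normoxia libraries, in the direction of the sample titles, which set the groups. The genotype tag contradicts the title in 6 samples, those of WT hypoxia and KO normoxia. The 3 AXL WT hypoxia libraries stand apart from one another: the biological coefficient of variation between replicates was 0.402 there, against 0.0739 in KO hypoxia, 0.0895 in KO normoxia and 0.0565 in WT normoxia. The tests pool the spread over all 4 groups, with a common value of 0.201. That is too small for comparisons with WT hypoxia and too large for those without it. The epithelial keratin Krt18 had 1159, 372 and 382 CPM in the WT hypoxia libraries (CPM are counts scaled to a common library size with TMM factors), and the driver Erbb2 had 2407, 131 and 359.5 CPM, so that replicates 2 and 3 lay below replicate 1. In the other groups Krt18 ran from 937 to 1090.2 CPM. Krt8 was also highest in WT hypoxia replicate 1, with 828, 323 and 418 CPM in the 3 libraries. The epithelial gene Epcam was not: it had 45.9, 104 and 42.6 CPM there, highest in replicate 2. Leukocyte markers (6 genes) summed to 0.0672 to 0.243 CPM in KO hypoxia, 5.52 to 146 CPM in WT hypoxia, 0.0172 to 0.0867 CPM in KO normoxia and 0.0930 to 0.210 CPM in WT normoxia. In WT hypoxia Csf1r, a macrophage receptor gene, held most of that sum at a mean of 63.9 CPM, while the pan-leukocyte gene Ptprc had 3 counts in each of these libraries. The 7 fibroblast markers summed to 76.0 to 84.9 CPM in KO hypoxia, 72.2 to 96.3 CPM in WT hypoxia, 203 to 224 CPM in KO normoxia and 66.4 to 72.8 CPM in WT normoxia, and the 5 endothelial markers to 15.9 to 17.8 CPM in KO hypoxia, 0.685 to 2.41 CPM in WT hypoxia, 3.28 to 4.68 CPM in KO normoxia and 0.372 to 0.740 CPM in WT normoxia. Of the endothelial markers, Kdr alone averaged 16.5 CPM in KO hypoxia and 3.69 CPM in KO normoxia, and the 4 others averaged under 1 CPM in both groups. The 6 epithelial and driver markers summed to 2373 to 2467 CPM in KO hypoxia, 1025 to 4699 CPM in WT hypoxia, 2232 to 2535 CPM in KO normoxia and 3731 to 3823 CPM in WT normoxia. The part of any of these marker differences in the results was not tested.

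The mitosis genes stood high in WT cells in normoxia and low in the other 3 groups. Their summed level was 1120, 1645 and 1462 CPM in the KO hypoxia libraries, 1100, 995 and 934 CPM in the WT hypoxia libraries, 941, 1254 and 969 CPM in the KO normoxia libraries, and 3819, 3948 and 4145 CPM in the WT normoxia libraries. The means were 1409 ± 266 CPM in KO hypoxia, 1010 ± 84.3 CPM in WT hypoxia, 1055 ± 173 CPM in KO normoxia and 3971 ± 164 CPM in WT normoxia (SD, n = 3 each). All 37 genes had their highest mean in WT normoxia. The lowest mean was in WT hypoxia for 20 genes, in KO normoxia for 12 and in KO hypoxia for 5. Relative to its own WT normoxia mean, the median gene stood at 28.7% in KO hypoxia, 21.3% in WT hypoxia and 26.2% in KO normoxia. Prc1 kept the highest share in KO hypoxia (96.5%) and Espl1 the lowest (10.8%). In WT hypoxia the shares ran from 5.26% for Kif15 to 52.8% for Kif4, and in KO normoxia from 14.0% for Espl1 to 52.7% for Cdc20.

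**Figure D2:**
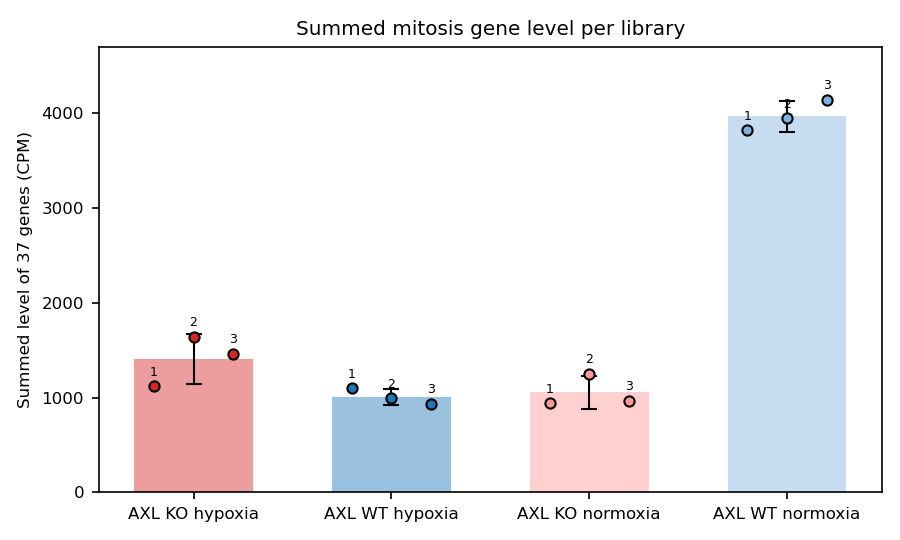
Summed level of the 37 mitosis genes (CPM, TMM-scaled) in each library, with bars for the group mean, error bars for the SD (n = 3) and numbered points for replicates 1 to 3. The 3 AXL WT normoxia libraries lie between 3819 and 4145 CPM, above all 9 others, which lie between 934 and 1645 CPM.

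Per kilobase of gene model, the abundance of the members spanned more than an order of magnitude. In WT normoxia Anln, which encodes the cytokinetic ring scaffold anillin, was the most abundant at 54.4 CPM per kb, next to Ccnb2 at 53.5 and Top2a at 47.4 CPM per kb. The least abundant were Kif18a at 2.24 and Kif15 at 3.35 CPM per kb. In KO hypoxia Anln was again first at 31.4 CPM per kb, but Ube2c followed at 26.5 and Tpx2 at 16.7 CPM per kb, and Kif15 was last at 0.650 CPM per kb.

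**Figure D3:**
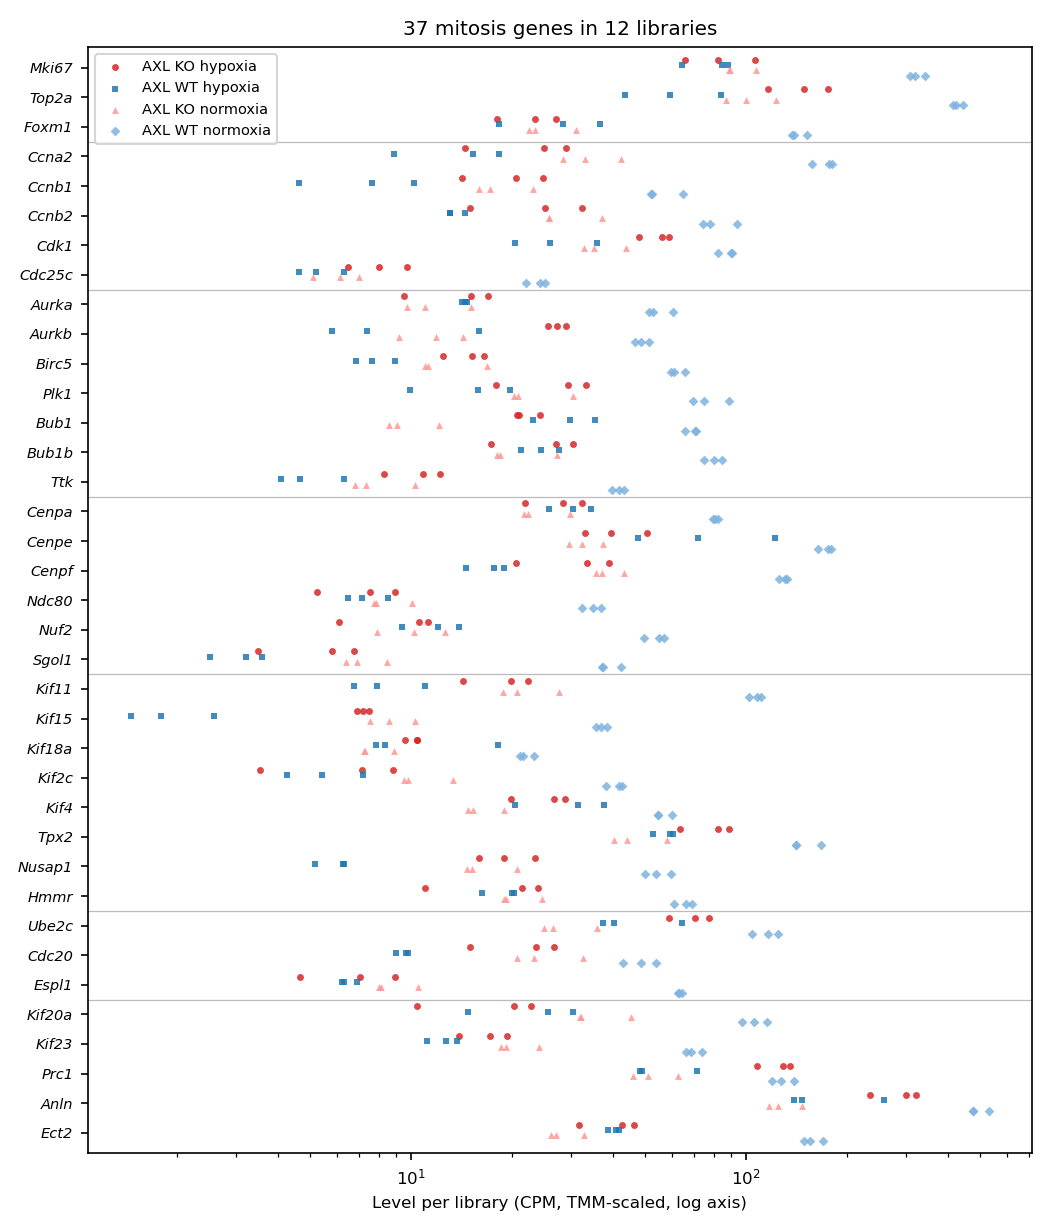
Level of each of the 37 genes in each of the 12 libraries (CPM on a log axis), in blocks by role and with 1 symbol per group. The pale blue diamonds of AXL WT normoxia lie to the right of all other libraries for every gene except Prc1, for which AXL KO hypoxia replicates 2 and 3 reach into them.

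In normoxia, all 37 mitosis genes were lower in KO cells than in WT cells, and the groups overlapped for none of them. The median log2 fold change was -1.93, against -0.03 over all tested genes, and 30% of all tested genes were called lower and 29.7% higher at an adjusted p under 0.05 (edgeR quasi-likelihood test, Benjamini-Hochberg adjustment over 16767 genes). Over all tested genes 40.4% were lower and 39.3% higher without overlap between the libraries. The proliferation antigen Mki67 had 88.7, 107 and 89.6 CPM in KO normoxia libraries, against 342, 319.9 and 307 CPM in WT normoxia libraries. Its log2 fold change was -1.76 ± 0.17, adjusted p = 3.33e-06. Top2a, the topoisomerase that untangles sister chromatids, had 87.2, 123 and 99.8 CPM in KO normoxia, against 415, 444 and 422 CPM in WT normoxia (-2.05 ± 0.23, adjusted p = 9.54e-06). For both genes the highest KO library lay far below the lowest WT library. The transcription factor gene Foxm1 changed more, at -2.48.

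Among the members, the normoxic difference was largest for separase and smallest for Cdc20. The strongest fall was that of Espl1 (ENSMUSG00000058290, chr15:102296266-102324357), which had 8.11, 10.5 and 7.99 CPM in KO normoxia, against 62.7, 63 and 64.2 CPM in WT normoxia. That is a log2 fold change of -2.84 ± 0.20, adjusted p = 2.78e-07. The checkpoint kinase gene Bub1 (ENSMUSG00000027379, chr2:127801122-127831865) had 8.59, 12.1 and 9.05 CPM in KO normoxia, against 65.6, 71 and 70.4 CPM in WT normoxia (adjusted p = 9.25e-08). At the other end stood Cdc20, the activator of the anaphase-promoting complex, with 23.3, 32.6 and 20.7 CPM in KO normoxia, against 42.9, 48.4 and 53.8 CPM in WT normoxia, a log2 fold change of -0.92 ± 0.21, adjusted p = 0.00264. Cdk1 (ENSMUSG00000019942, chr10:69335146-69352938) had 32.8, 43.6 and 35.1 CPM in KO normoxia, against 82.1, 90.6 and 90.2 CPM in WT normoxia (-1.24 ± 0.18, adjusted p = 0.000112). Cyclin B1 (Ccnb1) had 17.2, 23 and 15.9 CPM in KO normoxia, against 52.4, 52 and 64.8 CPM in WT normoxia (-1.59 ± 0.27, adjusted p = 0.000333). The 5 genes of the cyclin and CDK1 group had a median log2 fold change of -1.59, the 8 spindle motor and microtubule genes -1.74, the 5 midzone and cytokinesis genes -1.75, and the 7 kinases and checkpoint genes and the 6 kinetochore genes both -2.20. The ranges of these groups overlap, from -2.31 to -1.24 for the cyclin and CDK1 group and from -2.43 to -1.72 for the kinetochore genes, and a difference between roles was not tested. Ect2, which activates RhoA at the division plane, fell by 2.46 on the log2 scale, with the smallest adjusted p among the members (5.02e-08).

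In WT cells, hypoxia lowered all 37 mitosis genes, again without overlap between the libraries. The median log2 fold change was -2.23, against -0.02 over all tested genes, of which 30.7% were called lower and 33.4% were lower without overlap. The values ran from -4.25 to -0.92, with a kinesin gene at each end. Kif15 (ENSMUSG00000036768, chr9:122951046-123018733), a kinesin that helps keep spindle poles apart, had 2.58, 1.45 and 1.79 CPM in WT hypoxia, against 36.8, 38.3 and 35.7 CPM in WT normoxia, a log2 fold change of -4.25 ± 0.21, adjusted p = 5.21e-08. Sgol1 (Sgo1 in the annotation; ENSMUSG00000023940, chr17:53674786-53689333), the shugoshin that protects centromeric cohesin, had 3.58, 2.51 and 3.22 CPM in WT hypoxia, against 37.3, 37.1 and 42.2 CPM in WT normoxia (-3.65 ± 0.24, adjusted p = 3.61e-07). Kif11 and Ccna2 also lost most of their RNA, with log2 fold changes of -3.64 and -3.60.

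The genes that fell least in hypoxic WT cells were Kif4 and Kif18a, both kinesins that act on chromosome arms or kinetochore microtubules. Kif4 (ENSMUSG00000034311, chrX:100625737-100727214) had 20.4, 37.7 and 31.3 CPM in WT hypoxia, against 54.6, 54.6 and 60.0 CPM in WT normoxia (-0.92 ± 0.21, adjusted p = 0.0024). Kif18a (ENSMUSG00000027115, chr2:109280738-109341747) had 8.35, 18.1 and 7.85 CPM in WT hypoxia, against 21.1, 23.2 and 21.6 CPM in WT normoxia (-0.94 ± 0.26, adjusted p = 0.0088). In both genes WT hypoxia replicate 2 was the highest of its group. The centromere motor gene Cenpe also had replicate 2 highest, with 47.5, 122 and 71.9 CPM in WT hypoxia, against 179, 164 and 176 CPM in WT normoxia (-1.10 ± 0.27, adjusted p = 0.00414). Mki67 had 84.5, 88.1 and 64.4 CPM in WT hypoxia, against 342, 319.9 and 307 CPM in WT normoxia (-2.03 ± 0.17, adjusted p = 2.06e-06), and Top2a had 84.3, 43.5 and 59.2 CPM in WT hypoxia (-2.78 ± 0.23, adjusted p = 1.78e-06). With WT hypoxia replicates 2 and 3 left out, all 37 genes were called lower. That group is then 1 library, assumed to vary like those of the other groups.

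Between the genotypes in hypoxia the difference ran the other way for most genes and was smaller. Of the 37 genes, 21 were higher in KO cells, 2 were lower and 14 were not called, with a median log2 fold change of 0.54, against -0.04 over all tested genes. Over all tested genes 29.9% were called higher and 33% lower. With libraries scaled by their size alone, 14 members were called higher and 2 lower, with a median of 0.38 against -0.21 over all tested genes. The libraries did not overlap for 16 genes, all higher in KO cells, against 31.2% of all tested genes that were higher without overlap. The 5 genes of the cyclin and CDK1 group were all called higher, but Ccna2 passed narrowly (0.68 ± 0.28, adjusted p = 0.0487) and was called in only 4 of the 21 alternatives run, over which its adjusted p ran from 0.00954 to 0.496. Among the others, 4 of 7 kinase and checkpoint genes, 2 of 6 kinetochore genes, 4 of 8 spindle genes, 2 of 3 anaphase genes and 3 of 5 midzone genes were called higher.

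The largest difference among the members was that of Kif15, with 7.15, 7.46 and 6.89 CPM in KO hypoxia, against 2.58, 1.45 and 1.79 CPM in WT hypoxia, a log2 fold change of 1.88 ± 0.20, adjusted p = 7.07e-06. Nusap1 (ENSMUSG00000027306, chr2:119618298-119651244), which bundles spindle microtubules, had 15.9, 23.4 and 18.9 CPM in KO hypoxia, against 6.27, 5.16 and 6.31 CPM in WT hypoxia (adjusted p = 7.48e-06). The groups lay apart for both. Cdk1 had 47.8, 58.7 and 55.9 CPM in KO hypoxia, against 36, 20.4 and 26 CPM in WT hypoxia (0.98 ± 0.18, adjusted p = 0.000675). Ccnb1 had 14.2, 24.8 and 20.6 CPM in KO hypoxia, against 7.64, 4.62 and 10.2 CPM in WT hypoxia (1.41 ± 0.28, adjusted p = 0.000917). Top2a had 116, 175 and 149 CPM in KO hypoxia, against 84.3, 43.5 and 59.2 CPM in WT hypoxia (1.23 ± 0.22, adjusted p = 0.000474). All KO libraries of these 3 genes exceeded all WT libraries. Aurkb, the kinase of the chromosomal passenger complex, had 25.6, 28.9 and 27.3 CPM in KO hypoxia, against 15.9, 5.81 and 7.37 CPM in WT hypoxia (1.49 ± 0.30, adjusted p = 0.0011), and WT replicate 1 stood above replicates 2 and 3. Mki67 did not follow: it had 65.8, 106 and 82.1 CPM in KO hypoxia, against 84.5, 88.1 and 64.4 CPM in WT hypoxia, overlapping groups (0.10 ± 0.17, adjusted p = 0.62).

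The other genes called higher covered several steps of division. The survivin gene Birc5 (0.91 ± 0.18, adjusted p = 0.000937), the checkpoint kinase gene Ttk (1.06 ± 0.21, adjusted p = 0.000941), the kinetochore gene Cenpf (0.86 ± 0.19, adjusted p = 0.00236) and the spindle motor gene Kif11 (1.14 ± 0.21, adjusted p = 0.000652) were among those without overlap. Cdc20 had 14.9, 26.7 and 23.5 CPM in KO hypoxia, against 9.81, 9.0 and 9.66 CPM in WT hypoxia (1.20 ± 0.22, adjusted p = 0.000522), and every KO library was above every WT library. Prc1 had 107, 135 and 128 CPM in KO hypoxia, against 71.2, 48.9 and 48.3 CPM in WT hypoxia (1.14 ± 0.17, adjusted p = 0.000112), also without overlap. Plk1, the Polo-like kinase gene, Ccnb2, Cdc25c and Anln had smaller values of 0.82, 0.84, 0.58 and 0.65, and Kif23, a motor of the midzone, Tpx2, Ube2c, Ccna2 and Sgol1 had 0.42, 0.44, 0.54, 0.68 and 0.78. The 14 genes not called lay between -0.40 for Kif20a and 0.21 for Kif2c. They included the outer kinetochore genes Ndc80 (-0.03) and Nuf2 (-0.34), the centromeric histone gene Cenpa (-0.13), the Aurora A gene Aurka (-0.06), the checkpoint gene Bub1b (0.03), the spindle gene Hmmr (-0.01), Foxm1 (-0.28), Espl1 (0.09), Kif4 (-0.25) and Ect2 (-0.01).

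The 2 genes called lower in hypoxic KO cells, Cenpe and Bub1, act at the kinetochore. Cenpe (ENSMUSG00000045328, chr3:135212537-135273611) had 33, 50.5 and 39.5 CPM in KO hypoxia, against 47.5, 122 and 71.9 CPM in WT hypoxia, where replicate 2 stood out (-0.97 ± 0.27, adjusted p = 0.00826). Bub1 had 20.6, 24.2 and 21 CPM in KO hypoxia, against 23.1, 35.2 and 29.8 CPM in WT hypoxia (-0.42 ± 0.17, adjusted p = 0.0428). The groups overlapped for both genes. With WT hypoxia replicates 2 and 3 left out, 12 genes were called higher and 0 lower, the spread of that 1 library being taken from the other groups. Without KO hypoxia replicate 2, 12 were called higher. The calls lost without that replicate were those of Ccna2, Ccnb2, Cdc25c, Plk1, Sgol1, Tpx2, Ube2c, Kif23 and Anln, whose log2 fold changes were then 0.32 (Kif23) to 0.65 (Plk1), with adjusted p from 0.0524 (Ccnb2) to 0.193 (Ccna2). The count of lower calls was 5 without WT hypoxia replicate 1, when Foxm1 (-0.50), Kif4 (-0.45) and Kif20a (-0.64) were called as well. It was 1, Bub1 being lost, without each of WT hypoxia replicates 2 and 3, KO normoxia replicate 3, and KO hypoxia replicates 1 and 3. Kif18a, not called here (-0.17 ± 0.26, adjusted p = 0.59), became higher in KO cells without WT hypoxia replicate 2 (0.32, adjusted p = 0.0431). Ube2c held its higher call in 8 of the 21 alternatives, Kif23 in 10 and Tpx2 in 11, and Plk1, Anln, Sgol1, Ccnb2, Cdc25c, Cenpf, Birc5 and Cdc20 in 14 to 20. Of the 21 genes called higher, 9 were called higher under each of the 21 alternatives run: Top2a, Ccnb1, Cdk1, Aurkb, Ttk, Kif11, Kif15, Nusap1 and Prc1.

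**Figure D4:**
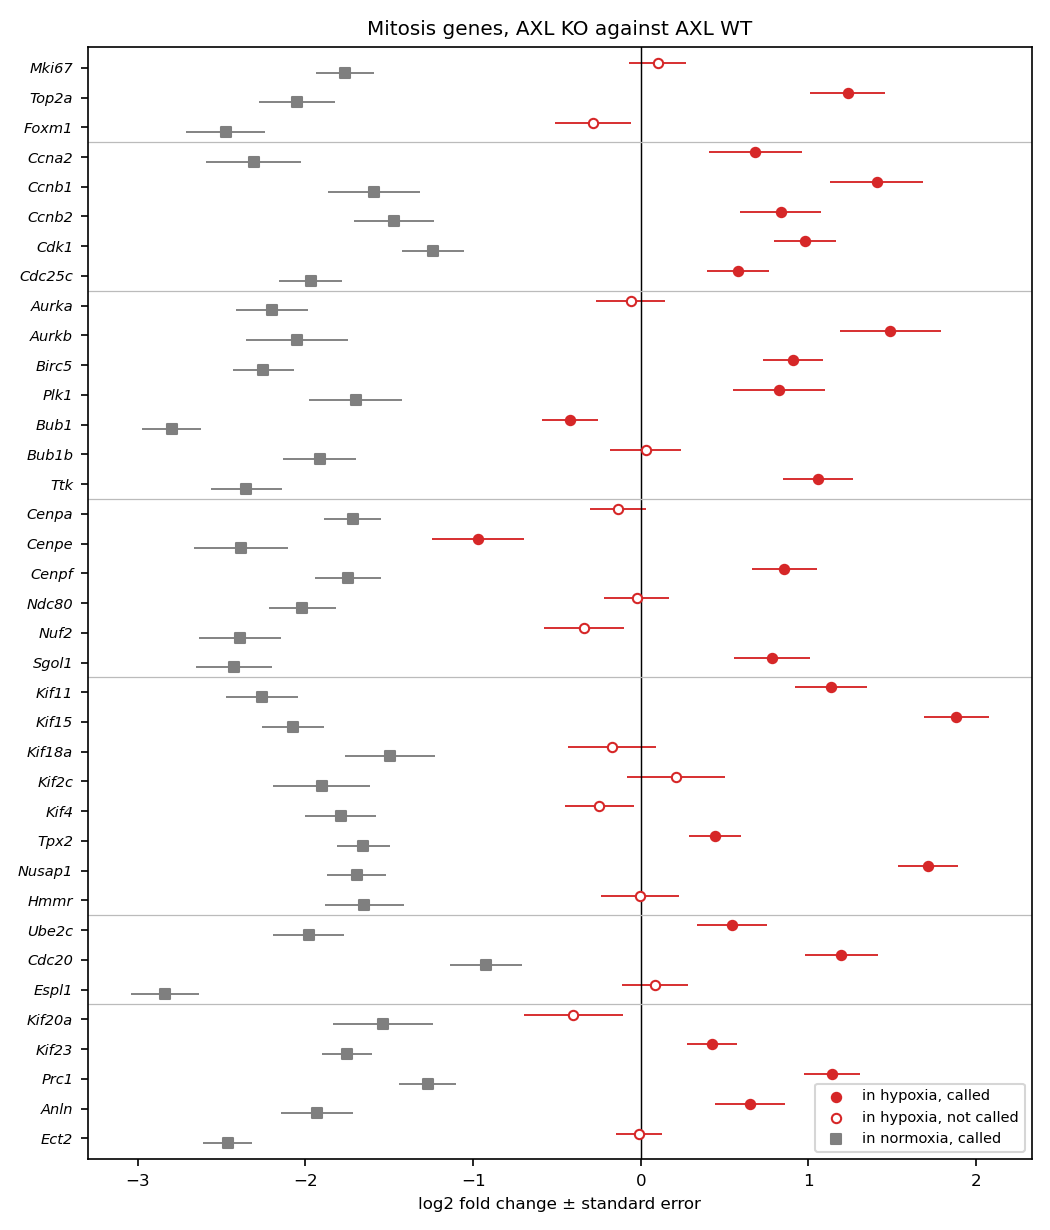
log2 fold change of AXL KO over AXL WT (± standard error) for each gene, in hypoxia (red circles, filled where called at an adjusted p under 0.05) and in normoxia (grey squares, all called). Every gene lies below 0 in normoxia, from -2.84 for Espl1 to -0.92 for Cdc20, while in hypoxia the values run from -0.97 for Cenpe to 1.88 for Kif15.

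In KO cells, most of the mitosis genes were not called between hypoxia and normoxia by edgeR in the fit over all 4 groups. Of the 37 genes, 9 were higher in hypoxia, 2 were lower and 26 were not called, against 27.3% of all tested genes called higher and 30.6% called lower. The median log2 fold change of the members was 0.17, against -0.03 over all tested genes, and it was -0.04, against -0.23 over all tested genes, when libraries were scaled by their size alone. With that scaling 6 genes were called higher and 8 lower. An alternative test, limma-voom with group weights, lost none of the edgeR calls. It also called Top2a, Cdc25c, Ttk and Kif18a higher and Ccna2, Sgol1, Kif15, Espl1 and Kif23 lower, so that most members were then called. Fitting the 2 KO groups alone added Top2a, Cdc25c and Kif18a as higher and Ccna2 and Kif15 as lower. Leaving out 1 library moved the median of the members between 0.039 (without KO hypoxia replicate 2) and 0.372 (without KO normoxia replicate 2); it was 0.060 without KO normoxia replicate 1, 0.083 without KO normoxia replicate 3 and 0.316 without KO hypoxia replicate 1. Libraries did not overlap for 9 genes higher and 3 lower in hypoxia, against 36.4% and 39.5% of all tested genes.

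The 9 genes called higher were Ube2c, Prc1, Aurkb, Bub1, Anln, Tpx2, Kif4, Cdk1 and Ect2. As a share of the 37 genes they are near the 27.3% of all tested genes called higher. Among them were 3 of the 5 midzone and cytokinesis genes and none of the 6 kinetochore genes, and a difference between roles was not tested. Ube2c (ENSMUSG00000001403, chr2:164769898-164778822), the ubiquitin-conjugating enzyme of the anaphase-promoting complex, had 58.8, 77.4 and 70.2 CPM in KO hypoxia, against 26.5, 35.9 and 24.8 CPM in KO normoxia, a log2 fold change of 1.24 ± 0.21, adjusted p = 0.000367. Prc1 (ENSMUSG00000038943, chr7:80294450-80316259) had 107, 135 and 128 CPM in KO hypoxia, against 45.9, 62.4 and 50.9 CPM in KO normoxia (1.22 ± 0.17, adjusted p = 8.6e-05). In the KO hypoxia libraries Prc1 thus reached into the range of the WT normoxia libraries, which held 119, 127 and 139 CPM. Aurkb had 25.6, 28.9 and 27.3 CPM in KO hypoxia, against 9.22, 14.3 and 11.8 CPM in KO normoxia (1.21 ± 0.30, adjusted p = 0.00449). Bub1 had 20.6, 24.2 and 21 CPM in KO hypoxia, against 8.59, 12.1 and 9.05 CPM in KO normoxia (1.14 ± 0.17, adjusted p = 0.000143). These 4 genes had no overlap between the groups. Cdk1 rose by less, with 47.8, 58.7 and 55.9 CPM in KO hypoxia, against 32.8, 43.6 and 35.1 CPM in KO normoxia (0.54 ± 0.18, adjusted p = 0.0238), and so did Kif4, with 19.9, 28.7 and 26.7 CPM in KO hypoxia, against 15.3, 18.9 and 14.8 CPM in KO normoxia (0.62 ± 0.21, adjusted p = 0.0227). The calls of Cdk1 and Kif4 were lost without each of KO normoxia replicates 1 and 3 and KO hypoxia replicates 2 and 3 (log2 fold changes of 0.45 to 0.58, adjusted p = 0.0667 to 0.0996). Anln had a mean of 285 ± 45 CPM in KO hypoxia and 129 ± 15.8 CPM in KO normoxia (SD, n = 3 each), and Tpx2, which activates Aurora A at the spindle, 78.1 ± 13.2 CPM in KO hypoxia and 47.5 ± 9.27 CPM in KO normoxia.

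Kif20a and Kif2c fell in hypoxic KO cells. Kif20a (ENSMUSG00000003779, chr18:34624624-34633265), the kinesin that carries Aurora B to the midzone, had 10.4, 22.8 and 20.3 CPM in KO hypoxia, against 32.1, 45.4 and 31.8 CPM in KO normoxia (-1.03 ± 0.30, adjusted p = 0.0109). Kif2c (ENSMUSG00000028678, chr4:117159639-117182639), a microtubule depolymerase of the centromere, had 3.54, 8.80 and 7.11 CPM in KO hypoxia, against 9.81, 13.4 and 9.48 CPM in KO normoxia (-0.75 ± 0.29, adjusted p = 0.0423). For both, KO hypoxia replicate 1 was the lowest library and the groups lay apart. Without KO hypoxia replicate 2, the highest library of its group, 5 genes were called lower, and without each of WT normoxia replicates 1, 2 and 3, KO normoxia replicates 1, 2 and 3 and KO hypoxia replicates 1 and 3 only 1 was, which was Kif20a, while the adjusted p of Kif2c was then 0.0501 to 0.155. The markers Mki67 (-0.17 ± 0.17, adjusted p = 0.414) and Top2a (0.51 ± 0.22, adjusted p = 0.0652) were not called, nor was Ccnb1 (0.09 ± 0.27, adjusted p = 0.809). Top2a was called higher in 8 of the 21 alternatives run. Among them were the fits without each of WT hypoxia replicates 1 and 2 and KO hypoxia replicate 1 (0.51 to 0.66, adjusted p = 0.0114 to 0.0368). DESeq2 (adjusted p = 0.0456) and limma-voom (adjusted p = 0.00289) called it too. Kif15, at 7.15, 7.46 and 6.89 CPM in KO hypoxia against 7.52, 10.2 and 8.58 CPM in KO normoxia, had a log2 fold change of -0.29 ± 0.18, adjusted p = 0.189. Of the calls, 6 of the 9 higher ones (Aurkb, Bub1, Tpx2, Ube2c, Prc1 and Anln) and Kif20a among the lower ones held under all 21 alternatives run.

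**Figure D5:**
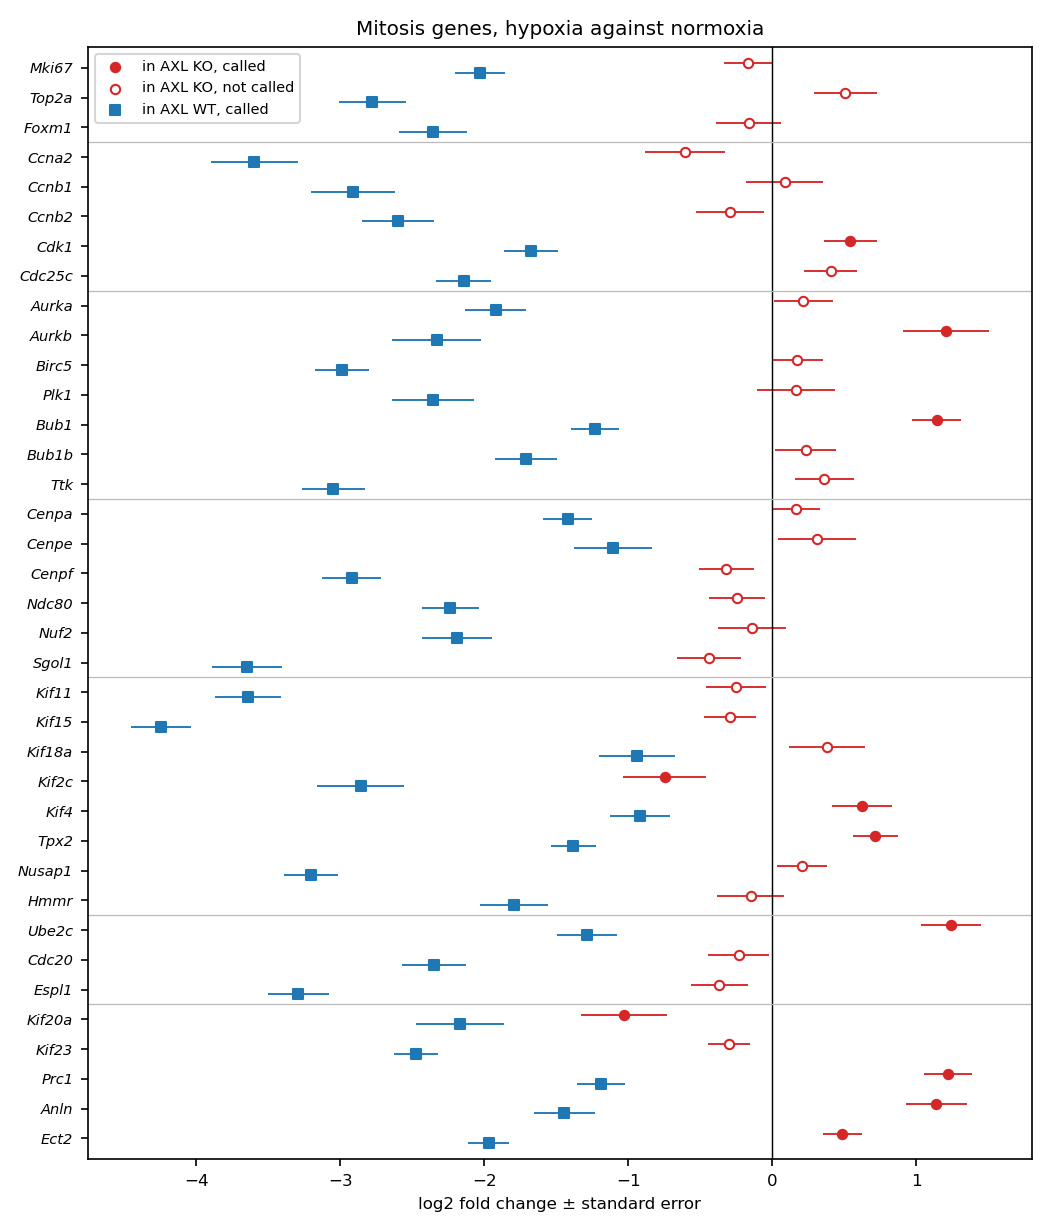
log2 fold change of hypoxia over normoxia (± standard error) for each gene in AXL KO cells (red circles, filled where called at an adjusted p under 0.05) and in AXL WT cells (blue squares, all called). In WT cells each gene lies below 0, from -4.25 for Kif15 to -0.92 for Kif4, and in KO cells the values scatter around 0, from -1.03 for Kif20a to 1.24 for Ube2c, with a median of 0.17 that is -0.04 when libraries are scaled by size alone.

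The response to hypoxia was compared between the genotypes directly, as the interaction, the log2 response in KO cells minus that in WT cells. Of the 37 genes, 36 had a more positive response in KO cells at an adjusted p under 0.05, and none a more negative one. Of all tested genes, 13.5% were called higher and 15.3% lower. The median over the 37 genes was 2.38, against -0.03 over all tested genes. Kif15 was at the top, with 3.95 ± 0.27, adjusted p = 4.2e-06: its level fell in WT cells and the change in KO cells was not called. Aurkb came next with 3.54 ± 0.43, adjusted p = 0.000142, being lower in hypoxia in WT cells and higher in KO cells. The smallest values were those of Kif18a (1.32 ± 0.37, adjusted p = 0.0204) and of Kif20a (1.14 ± 0.42, adjusted p = 0.0602), the one gene not called. Kif20a was at 17.8 ± 6.56 CPM in KO hypoxia, 23.6 ± 7.97 CPM in WT hypoxia, 36.4 ± 7.75 CPM in KO normoxia and 106 ± 8.91 CPM in WT normoxia (SD, n = 3 each), so that it was lower in hypoxia in both genotypes. The interaction uses the same libraries as the other comparisons and is not independent of them. It was called higher for 34 to 37 genes when each library was left out in turn. Kif18a lost its call without each of WT normoxia replicates 1, 2 and 3 and KO normoxia replicates 1 and 3 (1.21 to 1.28, adjusted p = 0.052 to 0.0626), and Cenpe without WT normoxia replicate 1 (1.31, adjusted p = 0.0515). Kif20a was called without each of WT hypoxia replicates 1 and 2 and KO hypoxia replicate 1 (0.90 to 1.42, adjusted p = 0.0168 to 0.0441), with library size alone (1.23, adjusted p = 0.0474) and by DESeq2 (1.10, adjusted p = 0.0395).

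In each KO group 1 library held the highest level of every mitosis gene. In KO hypoxia, replicate 2 held the highest level of all 37 genes, against 36.7% of all tested genes, and replicate 1 the lowest level of 36, against 45.5%. In KO normoxia, replicate 2 was again the highest for all 37 genes, against 31.3% of all tested genes. In WT normoxia replicate 3 was the highest for 24 genes, against 38.7% of all tested genes, and replicate 1 the lowest for 28, against 42.3%. The WT hypoxia libraries had no such order: replicate 1 was the highest for 18 genes, replicate 2 for 15 and replicate 3 for 4, against 39.5%, 34.2% and 26.4% of all tested genes. The ratio of the highest to the lowest library reached 2.49 in KO hypoxia (Kif2c), 2.74 in WT hypoxia (Aurkb), 1.59 in KO normoxia (Nuf2) and 1.27 in WT normoxia (Plk1).

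Most other kinetochore, checkpoint, spindle and cytokinesis genes were lower in KO cells in normoxia and lower with hypoxia in WT cells. Over all tested genes, 29.7% were called higher and 30% lower in KO cells in normoxia, 29.2% higher and 30.7% lower with hypoxia in WT cells, 29.9% higher and 33% lower in KO cells in hypoxia, and 27.3% higher and 30.6% lower with hypoxia in KO cells. Of 35 other kinetochore and checkpoint genes, 34 were lower in KO cells in normoxia and 29 were lower in hypoxia in WT cells, where 1 was higher. The centromere gene Cenpi had mean levels of 6.20 CPM in KO hypoxia, 6.22 CPM in WT hypoxia, 6.56 CPM in KO normoxia and 38.4 CPM in WT normoxia. In hypoxia 9 of the 35 (25.7%) were higher and 9 (25.7%) lower in KO cells, against 29.9% and 33% of all tested genes. With hypoxia in KO cells 9 (25.7%) rose and 6 (17.1%) fell, against 27.3% and 30.6%. The shares of higher genes are near those over all tested genes, and the 9 that rose were 4 to 11 over the alternatives. Mad1l1, a spindle checkpoint gene, was among those lower in hypoxic KO cells, both against hypoxic WT cells (-0.73 ± 0.09, adjusted p = 4.02e-05) and against normoxic KO cells (-1.02 ± 0.09, adjusted p = 4.74e-06). Of 26 other spindle and cytokinesis genes, 24 were lower in KO cells in normoxia, 21 were lower and 1 was higher with hypoxia in WT cells, 11 (42.3%) were higher and 3 (11.5%) lower in KO cells in hypoxia, and 13 (50%) were higher and 4 (15.4%) lower with hypoxia in KO cells. Kifc1, a minus-end kinesin gene, fell with hypoxia in WT cells (-2.10 ± 0.13, adjusted p = 2.43e-07) and rose with hypoxia in KO cells (1.21 ± 0.13, adjusted p = 1.24e-05). The tubulin gene Tubb5 averaged 2119 CPM in KO hypoxia and 592 CPM in KO normoxia (1.84 ± 0.15, adjusted p = 1.8e-06).

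Of 20 condensin and cohesin genes, 2 (10%) were higher and 15 (75%) lower in KO cells in normoxia, against 29.7% and 30% of all tested genes, and 4 (20%) were higher and 11 (55%) lower with hypoxia in WT cells, against 29.2% and 30.7%. In KO cells in hypoxia 5 (25%) were higher and 6 (30%) lower, near the 29.9% and 33% of all tested genes, and with hypoxia in KO cells 11 (55%) were higher and 1 (5%) lower, against 27.3% and 30.6%. The condensin II subunit gene Ncapg2 averaged 44.1 CPM in KO hypoxia and 10.3 CPM in WT hypoxia (2.10 ± 0.14, adjusted p = 1.86e-07). The condensin I subunit gene Ncapd2 averaged 114 CPM in KO hypoxia and 28 CPM in WT hypoxia (2.02 ± 0.15, adjusted p = 3.88e-07), and 44.3 CPM in KO normoxia. Of 15 genes that control mitotic entry, 13 were lower in KO cells in normoxia, 12 were lower with hypoxia in WT cells, 6 (40%) were higher and 4 (26.7%) lower in KO cells in hypoxia, and 6 (40%) were higher and 4 (26.7%) lower with hypoxia in KO cells. Wee1, the kinase that inhibits CDK1, was the strongest riser named in that list, with 236 CPM in KO hypoxia and 43.4 CPM in KO normoxia (2.45 ± 0.49, adjusted p = 0.00113), and 57.3 CPM in WT hypoxia and 46.3 CPM in WT normoxia.

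Inhibitors of cyclin-dependent kinases differed between the genotypes in a way that the knockout label does not name. Of 8 such genes 7 were tested: 3 (42.9%) were higher and 2 (28.6%) lower in KO cells in normoxia, against 29.7% and 30% of all tested genes, and 5 (71.4%) higher and 2 (28.6%) lower with hypoxia in WT cells, against 29.2% and 30.7%. In KO cells in hypoxia 4 (57.1%) were higher and 2 (28.6%) lower, against 29.9% and 33%, and with hypoxia in KO cells 3 (42.9%) were higher and 1 (14.3%) lower, against 27.3% and 30.6%. Cdkn2a and Cdkn2b, which encode p16/ARF and p15, had 0 counts in each of the 6 KO libraries. A count of 0 allows up to 0.0228 CPM over the KO hypoxia group and 0.0175 CPM over the KO normoxia group (3 counts over each group, counting error only). Cdkn2a had 33.1, 74.2 and 58.7 CPM in WT hypoxia and 11.5, 12.4 and 14 CPM in WT normoxia, and Cdkn2b had 56.3, 73.3 and 60.8 CPM in WT hypoxia and 22.3, 25.8 and 24.3 CPM in WT normoxia. Cdkn1a (p21) had 473, 418 and 419.7 CPM in KO hypoxia, 345, 409.6 and 342 CPM in WT hypoxia, 214, 208 and 206 CPM in KO normoxia and 95.1, 94.1 and 102 CPM in WT normoxia. Its log2 fold change was 1.11 ± 0.09, adjusted p = 9.57e-07 for KO against WT in normoxia, and it was 1.91 ± 0.10, adjusted p = 5.47e-08 for hypoxia in WT cells. Cdkn1b (p27) had 323, 330.3 and 343 CPM in KO hypoxia, 168, 165 and 187 CPM in WT hypoxia, 181, 166 and 186 CPM in KO normoxia and 65.7, 67.2 and 59.6 CPM in WT normoxia, with a log2 fold change of 1.47 ± 0.09, adjusted p = 5.76e-08 for KO against WT in normoxia. The lowest levels of both were thus in WT normoxia, the group with the highest mitosis genes. The highest levels of both were in KO hypoxia, which did not have the lowest mitosis genes. Their mean summed level was 1409 CPM in KO hypoxia, 1010 CPM in WT hypoxia and 1055 CPM in KO normoxia. In hypoxia Cdkn1b was higher in KO than in WT cells (0.94 ± 0.09, adjusted p = 2.73e-06). The part of these genes in the results was not tested, and the knockout and other differences between the KO and WT cells cannot be told apart.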

How the data were processed

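The 12 libraries were grouped by their sample titles. In 6 samples the genotype tag contradicts the title and was not used. The deposited values are counts per gene: per the file headers, the authors counted fragments with featureCounts 1.6.0 in reverse-stranded mode, and overlapping genes on opposite strands are therefore told apart. The submitters' processing notes name FastQC 0.11.5, STAR 2.5.1b, featureCounts 1.4.6, DESeq2 1.12.3 and the build GRCm38. Symbols came from GENCODE M21 by Ensembl identifier. The members and the related gene lists were chosen with earlier results of these data known. Genes were filtered with filterByExpr, scaled with TMM and tested in 1 fit over all 4 groups with edgeR 4.0.16 (R 4.3.3, quasi-likelihood test, Benjamini-Hochberg adjustment, threshold 0.05), after the procedure was tested on simulated data. CPM are TMM-scaled. The named genes are Mki67, Top2a, Cdk1 and Ccnb1, the 2 most positive and 2 most negative members of each comparison and members called against the majority, with up to 3 genes of smallest p per related list and comparison; other genes are given as ranges or single values. Prc1, Cdc20 and Aurkb are also shown by library in comparisons outside this rule, and were chosen for those after their values were seen. The alternatives were scaling by RLE size factors or by library size alone; dropping the low-count filter or raising it to 5 CPM in 3 libraries; limma-voom (limma 3.58.1) with group weights or DESeq2 1.42.0 as the test; and a replicate block, the compared groups only, each library left out in turn, and WT hypoxia replicates 2 and 3 left out. The related lists were added to these after the data had been seen. Depth was 45297267 to 58775422 counts per library.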

Additional observations from a re-analysis of the deposited data

Results flagged for a closer look

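The response to hypoxia (log2, hypoxia over normoxia, with its sign) was more positive in KO cells than in WT cells for 36 of the 37 genes. That was the result of the test of the difference itself (edgeR interaction term, adjusted over all tested genes), and each of the 36 is drawn out here for that reason. It does not mean a stronger change in KO cells: all 37 genes were lower with hypoxia in WT cells, and 26 were not called in KO cells. The differences, KO response minus WT response, were 1.86 for Mki67, 3.28 for Top2a and 2.19 for Foxm1 among the markers and regulators. For the cyclins and CDK1 they were 2.99 for Ccna2, 3.00 for Ccnb1, 2.31 for Ccnb2, 2.22 for Cdk1 and 2.55 for Cdc25c. Kinase and checkpoint genes had 2.14 for Aurka, 3.54 for Aurkb, 3.16 for Birc5, 2.52 for Plk1, 2.38 for Bub1, 1.94 for Bub1b and 3.41 for Ttk. Kinetochore genes had 1.58 for Cenpa, 1.41 for Cenpe, 2.60 for Cenpf, 1.99 for Ndc80, 2.05 for Nuf2 and 3.21 for Sgol1. Spindle genes had 3.39 for Kif11, 3.95 for Kif15, 1.32 for Kif18a, 2.11 for Kif2c, 1.54 for Kif4, 2.10 for Tpx2, 3.41 for Nusap1 and 1.64 for Hmmr. The anaphase genes had 2.53 for Ube2c, 2.12 for Cdc20 and 2.92 for Espl1, and the midzone genes 2.18 for Kif23, 2.41 for Prc1, 2.58 for Anln and 2.46 for Ect2. The adjusted p ran from 4.2e-06 for Kif15 to 0.0204 for Kif18a. These values share the 12 libraries, and the libraries of WT hypoxia, which stand apart from one another, enter all of them.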

How the results depend on the processing

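Each result was recomputed under the alternatives named in the processing account. The counts of 37 lower genes for KO against WT in normoxia and for hypoxia in WT cells were 37 under each alternative run, except 36 for the second when only the compared groups were fitted. The interaction, which needs all 4 groups and was not run on compared groups alone, gave 34 to 37 higher genes over the left-out libraries. In hypoxia, KO against WT, the count of 21 higher genes became 10 with limma-voom and group weights, 14 with library size alone, 12 with the compared groups alone and 12 with WT hypoxia replicates 2 and 3 left out, where that group is 1 library, assumed to vary as libraries elsewhere do. The count of 2 lower genes became 1 without the low-count filter, 1 with limma-voom, 1 with the compared groups alone and 0 with those 2 replicates left out. Over libraries left out in turn the ranges were 12 to 21 higher and 1 to 5 lower. For hypoxia in KO cells the 2 lower genes became 8 with library size alone, 1 without the low-count filter, 7 with limma-voom, 4 with the compared groups alone and 4 with WT hypoxia replicates 2 and 3 left out, and ranged from 1 to 5 over left-out libraries, against 7 to 12 higher genes. Limma-voom and the compared groups alone each added higher calls too, of Top2a, Cdc25c and Kif18a in both. The cause was not tested in any of these changes. One gene turned round, Kif18a for KO against WT in hypoxia, at 0.322 (adjusted p = 0.0431) without WT hypoxia replicate 2 and with a range of -0.381 to 0.322 over left-out libraries. Library size alone moved the median log2 fold change of all tested genes to -0.208 (KO against WT in hypoxia), -0.285 (in normoxia), -0.318 (hypoxia in WT) and -0.23 (hypoxia in KO). Whether replicate numbers pair the libraries is not settled. Correlations of same-numbered deviations ran from -0.144 to 0.229, and 3, 2, 1 and 4 of 6 libraries correlated best with their own number in the 4 comparisons. Between KO hypoxia and KO normoxia the correlations were 0.229, 0.203 and -0.061 for replicates 1, 2 and 3. With the replicate block, the counts were 19 higher and 2 lower, 37 lower, 37 lower, 9 higher and 2 lower, and 37 higher for the interaction. The block also called the interaction of Kif20a (1.15, adjusted p = 0.0167). Of the 1456 recomputed counts of the related lists, 108 moved by more than 1.5 times; the 9 anaphase-promoting complex genes lower in KO cells in hypoxia were 3 to 9. For the 105 values with the smallest p per list and comparison, a choice that favours stable calls, 2182 recomputed values kept their side of the threshold and 2 lost their call, both interactions with limma-voom.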

Other observations

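Of 17 genes for subunits and regulators of the anaphase-promoting complex, 2 (11.8%) were higher and 8 (47.1%) lower in KO cells in normoxia, against 29.7% and 30% of all tested genes, with a median log2 fold change of -0.28. With hypoxia in WT cells 3 (17.6%) were higher and 6 (35.3%) lower, the second share close to the 30.7% of all tested genes, with a median of -0.21. In KO cells in hypoxia 3 (17.6%) were higher and 9 (52.9%) lower, against 29.9% and 33%, and with hypoxia in KO cells 3 (17.6%) were higher and 6 (35.3%) lower, against 27.3% and 30.6%. The inhibitor gene Fbxo5 (EMI1) averaged 3.34 CPM in KO hypoxia, 1.88 CPM in WT hypoxia, 5.04 CPM in KO normoxia and 18.2 CPM in WT normoxia, and its log2 fold change was -1.85 ± 0.24, adjusted p = 3.21e-05 for KO against WT in normoxia. The subunit gene Cdc16 was higher in KO cells in normoxia, with 119 CPM in KO normoxia and 72.4 CPM in WT normoxia (0.71 ± 0.09, adjusted p = 2.8e-05).

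Of 22 genes of the DREAM, MMB and E2F transcription complexes, 3 (13.6%) were higher and 13 (59.1%) lower in KO cells in normoxia, against 29.7% and 30% of all tested genes, and 5 (22.7%) higher and 10 (45.5%) lower with hypoxia in WT cells, against 29.2% and 30.7%. In KO cells in hypoxia 10 (45.5%) were higher and 8 (36.4%) lower, against 29.9% and 33%, and with hypoxia in KO cells 13 (59.1%) were higher and 4 (18.2%) lower, against 27.3% and 30.6%. Mybl2 (B-MYB), which binds such promoters late in the cell cycle, averaged 5.40 CPM in KO hypoxia, 6.40 CPM in WT hypoxia, 3.15 CPM in KO normoxia and 43.3 CPM in WT normoxia. Its log2 fold change was -3.78 ± 0.23, adjusted p = 7.99e-08 for KO against WT in normoxia and -2.76 ± 0.22, adjusted p = 1.35e-06 for hypoxia in WT cells. The retinoblastoma gene Rb1 was higher in KO cells in hypoxia, with 194 CPM in KO hypoxia and 56.9 CPM in WT hypoxia (1.77 ± 0.27, adjusted p = 0.000165), and its relative Rbl2 had 123 CPM in KO hypoxia and 78.3 CPM in WT hypoxia (0.65 ± 0.09, adjusted p = 9.11e-05). E2f4, which had the smallest p of the list in that comparison, was lower, with 74.3 CPM in KO hypoxia and 154 CPM in WT hypoxia (-1.05 ± 0.11, adjusted p = 6.32e-06).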
